A study of Mus musculus with 3 samples.

Results

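Mt1, Mt2 and Mt3 are the metallothionein genes studied here, chosen as every probe set whose platform annotation gave exactly 1 symbol and that symbol was Mt1, Mt2 or Mt3. The rule found 3 probe sets, 1 for each gene, among 12422 probe sets that are not controls and 8251 named genes, and no probe set was shared between a metallothionein and another gene. The samples were 3 pools of neural retina from Rp1-/- mice at postnatal day 21, in a background mixed from 129/SvEv and C57BL/6, each pool holding the retinas of 3 to 4 animals taken from 1 to 2 pm. Rp1 encodes a microtubule-associated protein of photoreceptors, and no probe set carried its symbol, so the knockout label was not checked on the arrays. All samples form 1 group and all carry the knockout, so no genotype was compared and no test between groups could be made. Each pool was read on 1 array, so pool and array cannot be told apart in the spread below. The genes were chosen because Mt3 was known to run opposite to Mt1 and Mt2 in these same arrays, so their values are a description without a test.

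Metallothioneins are small proteins rich in cysteine that bind zinc and copper. Mt1 and Mt2 are made in most tissues, in the nervous system mainly in glia, and their transcription is raised by zinc through the factor MTF-1 and also by glucocorticoids, inflammatory cytokines and oxidative stress. Mt3 is largely restricted to the nervous system, was first described as a neuronal growth inhibitory factor, and responds little to the metals that induce the other members. Mt4 is the form of stratified squamous epithelia.

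The genes lie in 1 cluster on mouse chromosome 8. In the GRCm38.p6 gene table, Mt4 spans chr8:94137204-94139031, Mt3 spans chr8:94152607-94154148, Mt2 spans chr8:94172618-94173567 and Mt1 spans chr8:94178883-94180327. The gap between Mt2 and Mt1 is 5315 bases and that between Mt3 and Mt2 is 18469 bases. A link of position with signal was not tested. The cluster from Mt4 to Mt1 covers 43124 bases.

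Sequence upstream of the start sites is shown because metal response elements are the best known control sites of this family. RefSeq promoter windows of GRCm38.p6 were found for all 3 genes, and the 250 bases before the start were searched on both strands for the metal response core, spelled TGCGCNC or TGCACNC. Capitals mark these matches in Mt1 and Mt2 and the CTG repeat in Mt3, all printed 5′ to 3′ on the plus strand. For Mt2 and Mt3 the full 250 bases are given (chr8:94172368-94172617 and chr8:94152357-94152606), and for Mt1 the 30 bases around its match (chr8:94179055-94179084). The Mt1 start in the promoter table lies inside the annotated span of the gene given above, so these 30 bases, like most of the Mt1 window, lie within that span and precede only the start used.
Mt1: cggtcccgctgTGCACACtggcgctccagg
Mt2: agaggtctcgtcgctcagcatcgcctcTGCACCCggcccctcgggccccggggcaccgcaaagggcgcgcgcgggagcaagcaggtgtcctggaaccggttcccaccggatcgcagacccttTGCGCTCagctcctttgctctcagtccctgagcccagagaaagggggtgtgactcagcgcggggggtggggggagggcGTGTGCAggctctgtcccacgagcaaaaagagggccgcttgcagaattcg
Mt3: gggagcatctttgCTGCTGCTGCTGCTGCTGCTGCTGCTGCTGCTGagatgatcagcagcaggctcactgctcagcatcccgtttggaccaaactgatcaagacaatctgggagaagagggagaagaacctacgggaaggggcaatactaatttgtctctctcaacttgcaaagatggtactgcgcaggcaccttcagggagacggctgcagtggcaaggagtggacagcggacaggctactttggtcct

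The Mt2 window held 3 matches to the metal response core, the Mt1 window 1 and the Mt3 window 0. Sequence after the start used was not searched. Since the Mt1 start lies inside its annotated span, the Mt1 count may miss matches and is not compared with that of Mt2. Of 32851 windows of the same length, 21.4% held at least 1 match and 1.26% held at least 3. The match in Mt1 begins 23 bases before the start used, and those in Mt2 begin 223, 128 and 50 bases before it, the last on the minus strand. The antioxidant core TGACNNNGC occurred once, before Mt2 (10.2% of all windows hold it), and the hypoxia core ACGTG once, before Mt1 (16.6% of all windows). No matches overlapped. The Mt3 window held an uninterrupted run of 11 copies of CTG, and a run at least as long was found in 4 of the 32851 windows, its own included. GC content was 58.8% before Mt1, 67.6% before Mt2 and 54.8% before Mt3, against a median of 52.4%. A match describes letters and not a bound site, and none of these windows says anything about a factor in these retinas.

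All 3 genes gave signals well above background on every array. A probe set was taken as above background where it exceeded the 95th percentile of 19 bacterial and yeast controls on that array, a limit of 160.3, 80.7 and 107.1 in replicates 1, 2 and 3. Signals are linear intensities after setting the arrays to a common 2% trimmed mean. Levels are compared within a gene only, since each probe set responds differently to the same amount of RNA.

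Mt1, a zinc-inducible form, gave 1035, 2370 and 2071 in replicates 1, 2 and 3. Its mean was 1825 ± 701 (SD, n = 3). Replicate 1 was the low sample, and replicate 2 was 2.29-fold and replicate 3 2.00-fold above it. The signal was 6.46 times the background limit in replicate 1, 29.4 times in replicate 2 and 19.3 times in replicate 3.

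Mt2, the other zinc-inducible form, gave 1911, 2997 and 3341 in these samples. Its mean was 2750 ± 746 (SD, n = 3). Replicate 1 was again the low sample, with replicate 2 1.57-fold and replicate 3 1.75-fold above it. The order of replicates 2 and 3 differed from that of Mt1: Mt2 was 0.16 higher in replicate 3 than in replicate 2 on the log2 scale, while Mt1 had a difference of -0.19. With arrays scaled to a common median the Mt2 difference was -0.050, so the order of these samples is not settled.

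Mt3, the nervous system form, gave 2170, 1184 and 1110 in these samples. Its mean was 1488 ± 592 (SD, n = 3). Replicate 1 was the high sample, 1.83-fold above replicate 2 and 1.96-fold above replicate 3. Replicates 2 and 3 were close, with a log2 difference of -0.094.

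The same opposition appeared in the rank of each gene on its own array, which no scaling factor can alter. Mt1 stood at the 85.4th percentile of all probe sets in replicate 1, at the 94.6th in replicate 2 and at the 93.9th in replicate 3. Mt2 stood at the 94.6th, 96.1st and 97.0th percentiles of the same arrays. Mt3 stood at the 95.7th percentile in replicate 1, at the 87.0th in replicate 2 and at the 86.1st in replicate 3, with its highest rank where Mt1 and Mt2 had their lowest.

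**Figure D1:**
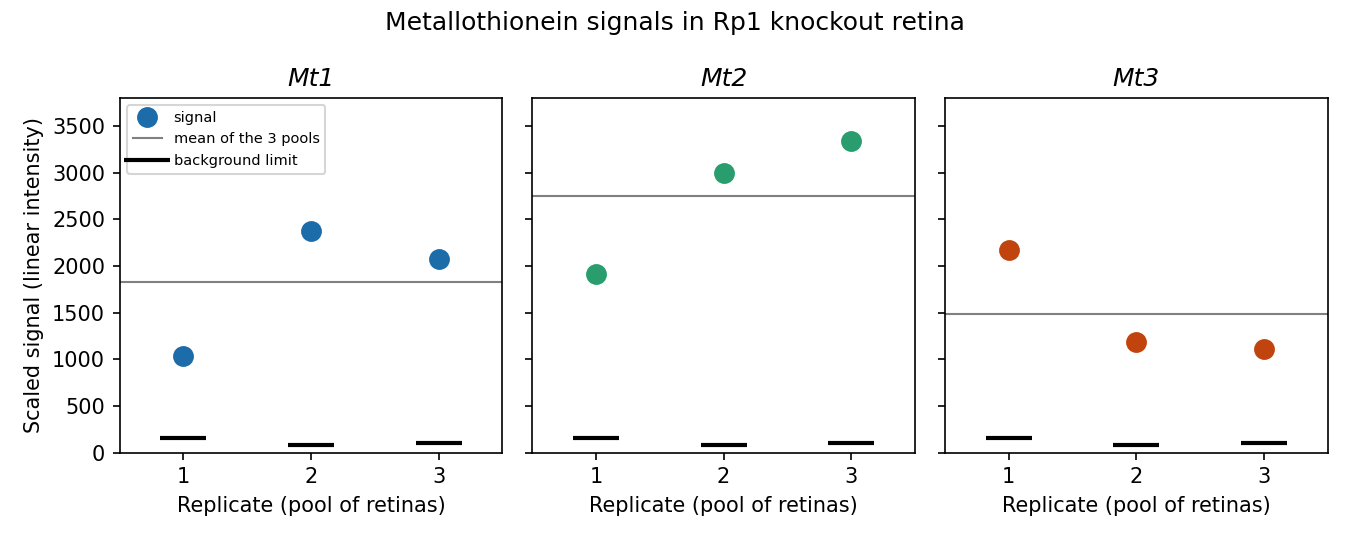
Scaled signal (linear intensity) of Mt1, Mt2 and Mt3 by replicate, with 1 point per pool of retinas, the mean of the 3 pools as a grey line and each array's background limit as a black bar. Replicate 1 is the lowest point for Mt1 (1035) and Mt2 (1911) and the highest for Mt3 (2170).

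The contrast between the members is clearest in ratios within an array, in which any factor common to the array cancels. The Mt3 over Mt1 ratio was 4.19-fold lower in replicate 2 than in replicate 1 (log2 change -2.07) and 3.91-fold lower in replicate 3 than in replicate 1 (log2 change -1.97). The Mt3 over Mt2 ratio was 2.87-fold lower in replicate 2 (log2 change -1.52) and 3.42-fold lower in replicate 3 (log2 change -1.77). Between replicates 2 and 3 the same ratios moved by 0.10 and -0.25 on the log2 scale. The Mt2 over Mt1 ratio, between the members that ran alike, was 1.46-fold lower in replicate 2 than in replicate 1 and 1.14-fold lower in replicate 3. These ratios show unequal change between the genes and do not tell which of them changed.

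Replicate 1 stood apart from the other arrays over the whole platform, and the pattern of the metallothioneins rests on it. Of the probe sets above background on the arrays compared, 600 of 7865 differed at least 2-fold between replicates 2 and 3, against 1293 of 6978 between replicates 1 and 3 and 1637 of 7063 between replicates 1 and 2. Without replicate 1, the remaining log2 differences were 0.19 for Mt1, 0.16 for Mt2 and 0.094 for Mt3 in size. With all samples, the range was 1.20 for Mt1, 0.81 for Mt2 and 0.97 for Mt3 on the log2 scale. A range of 1 or more was reached by 1 of the 3 genes, Mt1, and by 30.6% of the 6752 probe sets above background on all arrays. That range or a wider one was found in 20.5% of probe sets for Mt1, in 43.4% for Mt2 and in 32.2% for Mt3, and nothing is read from these shares, since the genes were chosen on these values.

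The direction of the differences was also shared by many other probe sets. Mt1 and Mt2 were at least 1.5-fold lower in replicate 1 than in both other samples, as were 700 of the 6752 probe sets above background (10.4%). Mt3 had the reverse pattern, with replicate 1 above both other samples by 1.5-fold or more, as did 1131 of them (16.8%). The background limit was highest in replicate 1, so a weak probe set was dropped more readily if low there than if high there. This tilts these shares, and those over all genes below, toward the pattern of Mt3, by an amount that was not measured. The balance of these patterns also differed with signal level. Among the 1648 probe sets with a mean signal of 1000 to 4000, the band that holds all 3 genes, 15% had the pattern of Mt1 and Mt2 and 4.07% that of Mt3.

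At least as far from replicate 1 as each gene, in both other samples and on the same side, lay 182 probe sets for Mt1 (2.70%), 442 for Mt2 (6.55%) and 594 for Mt3 (8.80%). Within the band of like signal these were 51 probe sets for Mt1 (3.09%), 143 for Mt2 (8.68%) and 21 for Mt3 (1.27%). After quantile normalization the shares over all levels were 5.36% for Mt1, 15.2% for Mt2 and 3.64% for Mt3, so the ranking of the genes by this share depends on the scaling. Both differences share replicate 1, which by itself spreads points along the diagonal, and other sources of this spread were not separated.

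**Figure D2:**
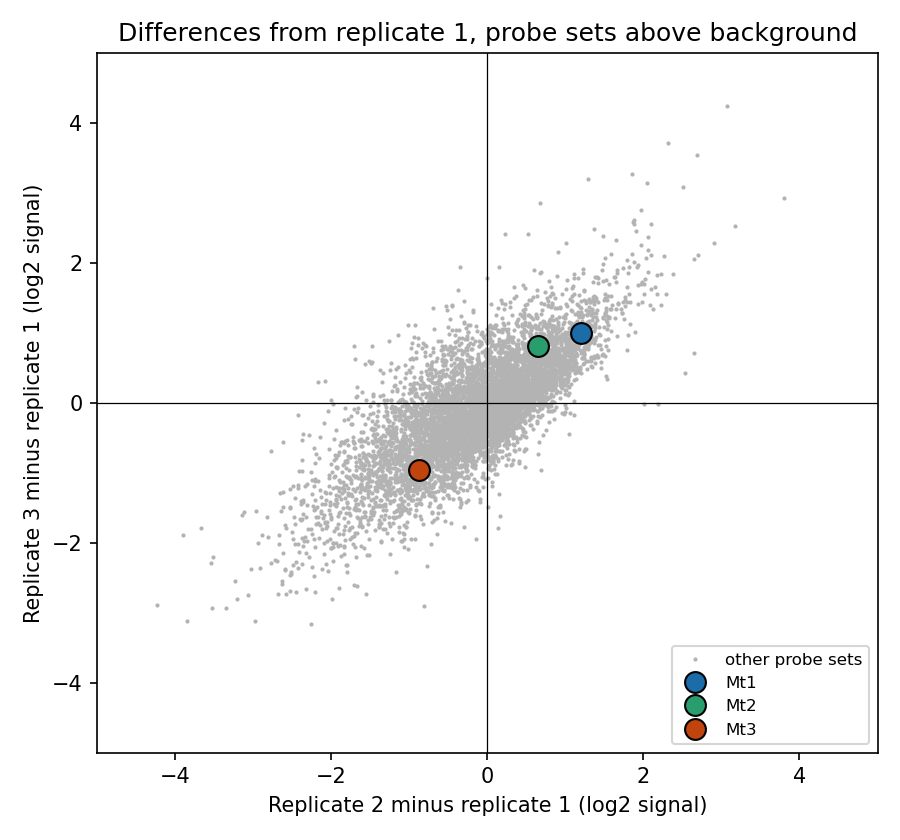
Log2 signal of replicate 2 minus replicate 1 (x axis) and of replicate 3 minus replicate 1 (y axis) for the 6752 probe sets above background on all arrays, in grey, with Mt1, Mt2 and Mt3 marked. Mt1 (1.20, 1.00) and Mt2 (0.65, 0.81) lie in the upper right of the cloud and Mt3 (-0.87, -0.97) in its lower left. Both axes share replicate 1, which by itself stretches the cloud along the diagonal. Other sources of this stretch were not separated.

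Scaling of the arrays changed the size of each difference and kept the sign of every difference from replicate 1. Setting the arrays to a common median shifted log2 values by -0.22, 0.23 and 0.02 in replicates 1, 2 and 3. On that scale the difference of replicate 2 from replicate 1 was 1.65 for Mt1, 1.10 for Mt2 and -0.42 for Mt3. The corresponding difference of replicate 3 was 1.24 for Mt1, 1.05 for Mt2 and -0.72 for Mt3. Under quantile normalization the difference of replicate 2 was 1.05 for Mt1, 0.31 for Mt2 and -1.13 for Mt3. Mt3 therefore no longer passed 1.5-fold in both samples with a common median, where 21.2% of probe sets had the pattern of Mt1 and Mt2 and 8.81% the reverse. Mt2 no longer did so after quantile normalization, where these shares were 12.6% and 13.6%. The Mt3 over Mt1 ratio changed by -2.17 in replicate 2 and -2.12 in replicate 3 after quantile normalization, close to the values above.

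**Figure D3:**
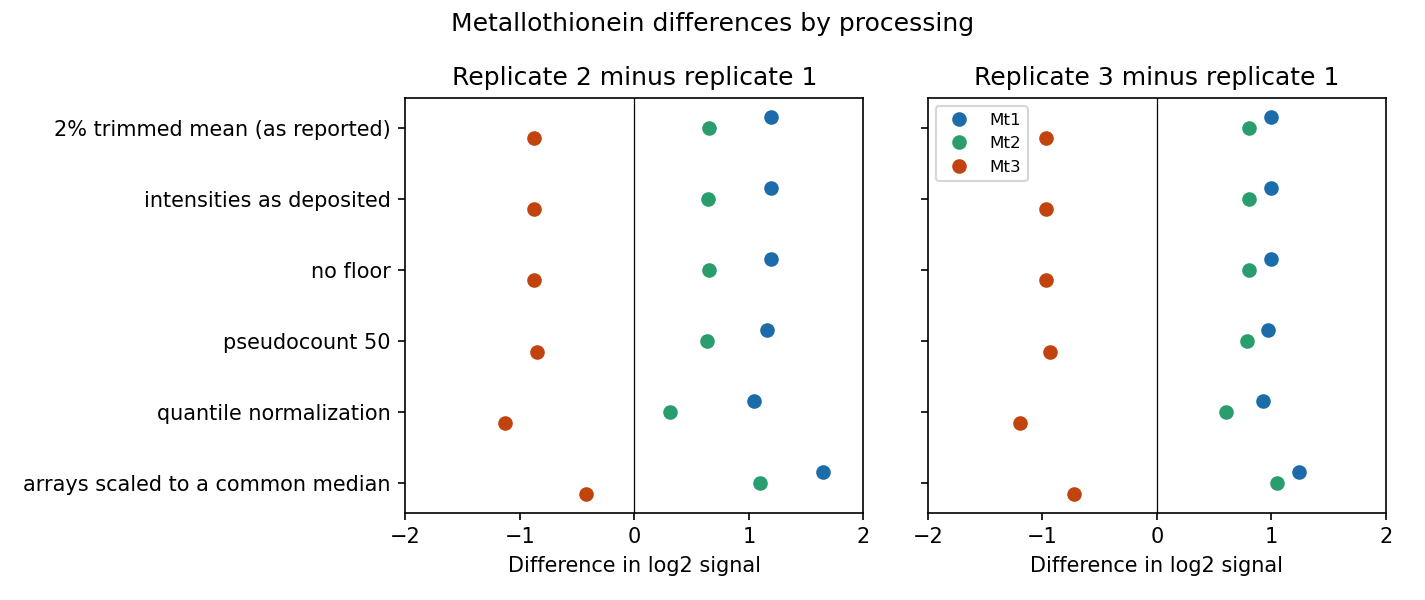
Log2 difference of replicate 2 (left) and replicate 3 (right) from replicate 1 for Mt1, Mt2 and Mt3, with 1 row for each way of processing. All points of Mt1 and Mt2 lie right of 0 and all points of Mt3 left of it, and Mt3 is nearest to 0 (-0.42) where arrays were scaled to a common median.

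Mt1 and Mt2 lay close to each other in profile, although many genes lay as close. Likeness was measured as the Euclidean distance between log2 values centred on each probe set's mean over the 3 samples. The distance between Mt1 and Mt2 was 0.39, and 8.74% of the other 6751 probe sets above background lay at that distance from Mt1 or nearer. Mt3 lay 1.65 from Mt1 and 1.36 from Mt2, and 5.12% of probe sets lay as far from Mt3 as Mt1 or farther. After quantile normalization the distance between Mt1 and Mt2 was 0.52, with 20.5% of probe sets as near, and 8.68% lay as far from Mt3 as Mt1. With only 3 samples, such a likeness carries little information.

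The genes nearest to the mean profile of Mt1 and Mt2 were Sf3b1, a splicing factor subunit, at a distance of 0.017, the hedgehog ligand gene Dhh at 0.022, the small GTPase gene Rhoa at 0.026, the TNF receptor-associated factor gene Traf5 at 0.027 and Slc35b2, which carries the sulfate donor of the Golgi, at 0.034. Sf3b1, for example, had signals of 814, 1554 and 1508 in replicates 1, 2 and 3. The genes nearest to Mt3 were Leng8 at 0.014, Pcp4l1 at 0.029, the Integrator subunit gene Ints8 at 0.032, the ribonuclease P subunit gene Rpp14 at 0.033 and Rab3ip, which encodes an exchange factor for Rab8, at 0.038. Leng8 had signals of 1985, 1095 and 1029. None of these genes belongs to the lists below.

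Genes of metal sensing and transport were split between both patterns. Of 21 measured genes on this list, 16 were above background on all arrays. Of these 16, 3 were at least 1.5-fold lower in replicate 1 than in both other samples, like Mt1 and Mt2, and 2 were at least 1.5-fold higher, like Mt3. Over all 5006 genes above background these shares were 10.9% and 16%. The median difference of the list was -0.01 for replicate 2 and -0.07 for replicate 3 from replicate 1, beside -0.05 and -0.06 over all genes.

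Mtf1, the gene of the zinc sensor MTF-1, had signals of 575, 202 and 297 in replicates 1, 2 and 3, highest in the sample where Mt1 and Mt2 were lowest. Slc30a1, a zinc exporter of the plasma membrane that MTF-1 also controls, gave 198, 99.6 and 85.2, below the limit in replicate 3. Neither gene shared the low replicate 1 of Mt1 and Mt2.

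Slc39a1, a zinc importer of the plasma membrane, had signals of 809, 1863 and 1553, with the same low replicate 1 as Mt1, while another probe set of it gave 81.6, 56.0 and 109, above the limit in replicate 3 alone. Slc30a4, a zinc transporter of vesicles, gave 315, 580 and 527, also lowest in replicate 1, but its other probe set gave 196, 56.7 and 17.2, highest there and below the limit in replicates 2 and 3. Slc30a3, which fills synaptic vesicles with zinc, gave 2501, 1872 and 4572, highest in replicate 3. The 3 zinc transporters thus had no pattern in common.

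Slc30a9, a zinc transporter of mitochondria, gave 1048, 512 and 545, with the high replicate 1 of Mt3. The importer gene Slc39a8 gave 501, 61.2 and 86.7, below the limit in replicates 2 and 3, and Slc39a4 gave 81.0, 139 and 232, below it in replicate 1. Another probe set of Slc39a4 gave 1046, 745 and 2067. Mt4, the epithelial metallothionein, was below the limit on all arrays, at 58.1, 17.7 and 25.6.

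Genes of the glucocorticoid and cytokine response, signals that induce Mt1 and Mt2, were split in a way that depended on the scaling. All 14 genes were measured and 11 were above background on all arrays. Of these, 2 had the pattern of Mt1 and Mt2 and 2 that of Mt3, beside 10.9% and 16% of all genes. With a common median of the arrays these were 4 and 0 of the 11, beside 1105 and 409 of all 5006 genes. After quantile normalization they were 3 and 0, beside 658 and 656 of all 5006 genes. Sgk1, a kinase gene induced by glucocorticoids, gave 1248, 3615 and 2597, and Cebpd, a factor of the acute phase response, gave 695, 1613 and 1446, both lowest in replicate 1. Fkbp5, a glucocorticoid-induced co-chaperone of the receptor, gave 213, 305 and 383. Tsc22d3, the gene of the glucocorticoid-induced leucine zipper, ran the other way with 369, 98.2 and 25.8, the last below the limit.

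The receptor gene Nr3c1 gave 45.7, 123 and 148, below the limit in replicate 1. The NF-kappaB inhibitor gene Nfkbia gave 138, 575 and 612 at one probe set, below the limit in replicate 1, and 471, 280 and 324 at another, in the opposite order. The probe sets of Nfkbia therefore disagree on which sample was low.

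Genes of the oxidative stress response held both the pattern of Mt3 and genes without it. Of 9 genes above background on all arrays among 11 measured, 4 had replicate 1 above both other samples by 1.5-fold or more and 0 had it below them by as much, beside 16% and 10.9% of all genes. With a common median of the arrays these were 2 and 0 of the 9, beside 409 and 1105 of all 5006 genes. The median difference from replicate 1 was -0.78 in replicate 2 and -0.80 in replicate 3, or -0.33 and -0.56 on the common median scale, and -0.60 and -0.74 after quantile normalization. Replicate 1 was the highest sample for 7 of the 9 genes, as it was for 42.6% of all genes above background. Srxn1, which reduces oxidised peroxiredoxins, gave 842, 351 and 256, although another probe set of it gave 232, 134 and 412. Gclc, the catalytic subunit of glutathione synthesis and a gene that zinc also induces, gave 787, 457 and 450, and its partner Gclm gave 462, 315 and 343.

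The quinone reductase gene Nqo1 gave 296, 138 and 108, and the glutathione peroxidase gene Gpx1 gave 988, 473 and 823. Nfe2l2, the gene of the master regulator NRF2, gave 436, 611 and 499, lowest in replicate 1. Its inhibitor gene Keap1 gave 214, 53.7 and 6.10, above the limit in replicate 1 alone. Hmox1, the inducible haem oxygenase, gave 2184, 2386 and 1420, lowest in replicate 3.

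Hypoxia response genes were highest in replicate 2 in 9 of 12 genes above background, beside 1650 of all 5006 genes. After quantile normalization these were 5 of 12 and 1720 of 5006, and with a common median of the arrays 11 of 12 and 2766 of 5006. None of the 12 reached a range of 1, beside 28.3% of all genes. The vascular growth factor gene Vegfa gave 486, 582 and 571, the glucose transporter gene Slc2a1 gave 1237, 1905 and 1517, and the glycolytic gene Pgk1 gave 6259, 10718 and 7820. The probe set of Hif1a, of a kind designed to match a family of sequences, gave 12243, 19535 and 14829. Adm, the adrenomedullin gene, was above the limit in replicate 3 alone, at 122.

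Of the iron and haem genes, 4 of 5 measured were above background. Fth1, the ferritin heavy chain, gave 3964, 7292 and 5205 at one probe set and 5097, 5593 and 13037 at another, and Hmox2, the constitutive haem oxygenase, gave 458, 253 and 177. The iron regulatory gene Ireb2 gave 547, 664 and 547, and Aco1 gave 69.8, 80.8 and 51.0. The transferrin receptor gene Tfrc gave 345, 257 and 268 at one probe set and 1161, 2071 and 3447 at another, so its probe sets disagree.

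Markers of several cell types also differed between the samples. In whole tissue, fewer cells of a type and less RNA per cell cannot be told apart. The retinal label held in so far as all 9 measured rod markers were above background on all arrays. Of 8 Müller glia markers, all above background, 4 were at least 1.5-fold lower in replicate 1 than in both other samples and 1 was higher, beside 10.9% and 16% of all genes. The summed signal of this list was 22929, 36241 and 30195 in replicates 1, 2 and 3, and its median difference from replicate 1 was 0.69 in replicate 2, or 0.19 after quantile normalization. The water channel gene Aqp4 gave 650, 1395 and 1347, and Clu, the clusterin gene, gave 3682, 9331 and 8369, both with the low replicate 1 of Mt1 and Mt2. The intermediate filament gene Vim gave 475, 91.1 and 174, with the high replicate 1 of Mt3. Glul gave 3557, 2390 and 1378, also highest in replicate 1, though less than 1.5-fold above replicate 2. Another Glul probe set gave 1828, 457 and 1873.

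Astrocyte markers had 4 of 5 measured genes above background, 2 lower in replicate 1 by 1.5-fold and 2 higher (10.9% and 16% of all genes). These were 2 and 0 with a common median (1105 and 409 of all 5006 genes) and 1 and 0 after quantile normalization (658 and 656). The summed signals were 7125, 15109 and 11977. Aldoc, an aldolase of astrocytes, gave 5324, 10278 and 8455, while the filament gene Gfap gave 344, 182 and 216 and S100b gave 258, 127 and 146. Another Gfap probe set gave 777, 555 and 663, also highest in replicate 1 but with narrower gaps. Gja1 gave 1147, 4383 and 3046 at the probe set used and 562, 505 and 369, highest in replicate 1, at another. Neither glial list had a single pattern in all its members.

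As a ratio, summed signal differed most between replicates 1 and 2 in the pigment epithelium, stroma and blood lists, from outside the neural retina. These sums were all lowest in replicate 1, as were Mt1 and Mt2. The 7 measured pigment epithelium and melanocyte genes, 3 of them above background on all arrays, summed to 2161, 13044 and 8597 in replicates 1, 2 and 3. Of these, Ttr gave 609, 891 and 533, lowest in replicate 3. The 8 stroma and vessel wall genes, 5 above background, summed to 2664, 15898 and 10968, of which Ptgds, the prostaglandin D synthase gene of meninges and pigment epithelium, gave 889, 12449 and 6736. Other Ptgds probe sets gave 2257, 8353 and 4569, and 1665, 8114 and 4901, with narrower gaps in the same order. The 5 stroma genes above background were not uniform, with a median difference from replicate 1 of -0.21 in replicate 2 and 0.47 in replicate 3. That median leaves out Dcn (23.1, 602 and 648), Acta2 (55.5, 722 and 734) and Col1a2 (38.8, 219 and 269), all below the limit in replicate 1. Another Col1a2 probe set gave 1424, 945 and 1959, lowest in replicate 2. The 5 measured blood genes, 2 above background, summed to 5535, 31736 and 8295, of which Hba-a1 gave 4077, 25566 and 6661. Hbb-b2 gave 1218, 5536 and 1207, with replicates 1 and 3 close. No marker of these lists was listed at 0. Their part in the metallothionein signals was not tested.

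By their median, endothelial markers ran in the direction of Mt3 under each scaling, and ganglion cell markers in part. The 6 measured endothelial genes, 4 above background, summed to 3009, 1605 and 2027. All 4 were highest in replicate 1, or 2 of 4 with arrays scaled to a common median. Of all genes above background, 42.6% were highest in replicate 1, or 1195 of 5006 with a common median. Flt1 gave 722, 272 and 318 at the probe set used. Another Flt1 probe set gave 88.7, 271 and 265, the opposite pattern and below the limit in replicate 1. The 6 measured ganglion cell genes, all above background, summed to 8292, 6473 and 5178. Replicate 1 was the highest sample for 5 of them, or for 2 with a common median, beside the same shares of all genes. Their median difference in replicate 2, -0.43, became 0.018 with arrays scaled to a common median. Sncg gave 1892, 1410 and 799 at the probe set used and 800, 1149 and 1720, in the opposite order, at another. Amacrine and horizontal cell genes summed to 14755, 17936 and 14916, and microglial genes to 1988, 1904 and 2222. Whether these lists have a part in the Mt3 signal was not tested.

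The remaining lists gave summed signals of 105242, 150397 and 103851 for rods, 128467, 189739 and 133972 for lens and 1402, 2784 and 2853 for bipolar cells in replicates 1, 2 and 3. The rod and lens sums were highest in replicate 2, as was Mt1, although after quantile normalization their median differences from replicate 1 in that sample were -0.14 and -0.12.

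**Figure D4:**
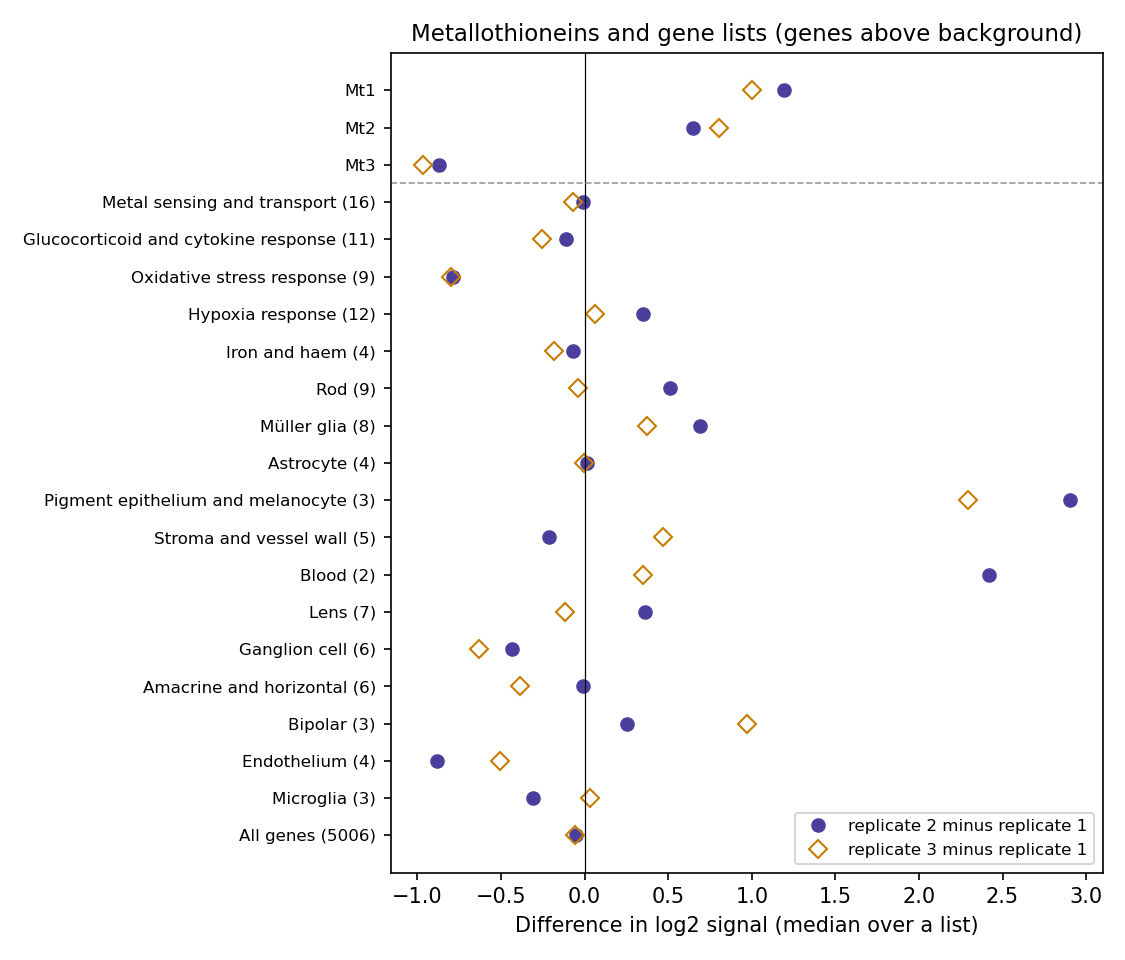
Log2 difference from replicate 1 of replicate 2 (filled circles) and replicate 3 (open diamonds), for Mt1, Mt2 and Mt3 at the top and as the median of each gene list below, with the number of genes above background on all arrays in brackets. Mt1 and Mt2 lie right of 0, as do the pigment epithelium list (2.90 and 2.29) and the Müller glia list (0.69 and 0.38). The blood (2.42 and 0.35), bipolar (0.25 and 0.97) and hypoxia (0.35 and 0.06) lists do so as well. Mt3 lies left of 0, as do, among other lists, the oxidative stress list (-0.78 and -0.80) and the endothelium list (-0.89 and -0.50).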

How the data were processed

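Retinal RNA was hybridised to 3 one-colour Affymetrix arrays, whose titles carry the name U74Av2. The deposited table gives a linear intensity per probe set and array. The sources used here do not give how the authors computed it, but the deposited intensities have a 2% trimmed mean of 500.2, 500.3 and 500.2, so they share a scale. Each array was multiplied by a factor (0.998, 1.00 and 1.00) to a common 2% trimmed mean over probe sets that are not controls. Values below an array's 5th percentile were set to it before log2. No detection calls were used, and the number of arrays limits the precision. Above the background limit lay 7921, 8624 and 8442 probe sets.

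The replicate numbers only name the samples. Symbols came from the platform annotation. A gene of a list was read from 1 probe set, preferring a plain suffix and then the highest mean. The genes and lists were chosen with earlier results of these data known. Named genes were the 3 metallothioneins, the 5 genes nearest to each profile, and from each response list the first 4 measured and up to 4 more with a range of 1 or more. Mt4 and the cell type markers named singly were chosen after their values were seen. The 1.5-fold pattern, the signal band of 1000 to 4000 and the other scalings of the lists were also set after the data were seen. The range and distance computations were tested on simulated data. The software was pandas 2.3.3, numpy 2.4.6 and matplotlib 3.10.9 under Python 3.11.15.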

Additional observations from a re-analysis of the deposited data

How the results depend on the processing

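Values were recomputed with the intensities as deposited, a common median, quantile normalization, a pseudocount of 50, no floor, and each sample left out. All 30 recomputed differences of the 3 genes from replicate 1 (6 differences under 5 alternatives with all samples) kept their sign. Scaling to a common median moved the Mt2 difference of replicate 2 from replicate 1 to 1.10 and turned that of replicate 3 from replicate 2 to -0.050 (0.16 as reported), so the order of these samples is not settled for Mt2. Leaving out each sample in turn, the log2 range lay between 0.19 and 1.20 for Mt1, between 0.16 and 0.81 for Mt2 and between 0.094 and 0.97 for Mt3, lowest without replicate 1 in each case. The number of probe sets with a range of 1 or more was 2067 of 6752 as reported (30.6%). It was 6826 of 12422 with no background limit (55.0%) and 318 of 1648 in the band of 1000 to 4000 (19.3%). The number and the share thus both depended on the probe sets included. With each sample left out, the number lay between 600 (7.63%) and 1637 (23.2%). No paired analysis was possible because the samples form 1 group. With 3 pools in 1 group and 1 probe set per gene, no second probe set can check any of these values.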
